A study of Mus musculus with 6 samples.

Results

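A set of 35 mouse genes of fatty acid oxidation, ketone body metabolism and peroxisome proliferator-activated receptor (PPAR) signalling was followed in colon tumours. The members were named by symbol, and each of the 35 had a row among the 53700 gene rows of the deposited count table. Tumours came from 2 groups of mice. The 3 APC-KI mice had taken doxycycline, at 100 mg/kg in their food, for 6 weeks and were described as recovered from cachexia, the wasting syndrome of advanced cancer. In them doxycycline represses the endogenous transcription factor gene Tcf7l2 throughout the body. The 3 APC-WT mice had taken the same food for 10 days, kept endogenous Tcf7l2 expression and were cachectic. Genotype, time on doxycycline and cachexia state changed together, so they cannot be told apart here. The sex of the mice, read from transcripts below, was also unbalanced between the groups. The labels do not say which promoter drives the repression or give the strain or age of the mice, and each library was taken as 1 mouse.

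Fatty acids reach the mitochondrial matrix as carnitine esters and are shortened there by a repeating cycle of dehydrogenase, hydratase and thiolase reactions called beta-oxidation. Peroxisomes run a related cycle for very long chains. Colonocytes, the absorptive cells of the colon, are known for burning butyrate made by gut bacteria, and they can also make ketone bodies. PPAR alpha, delta and gamma are nuclear receptors that bind fatty acids and, paired with RXR, switch on many of these genes.

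Fragments of tumour RNA were read by stranded sequencing of polyadenylated RNA, and the libraries held between 54895823 and 56825956 counts in APC-KI tumours and between 51777342 and 63921108 counts in APC-WT tumours. Levels are given as CPM, the counts of a gene scaled to the library size after TMM normalisation. A change is the log2 ratio of APC-KI over APC-WT with its standard error (SE) from edgeR's quasi-likelihood fit over 19127 genes, and it passed at a Benjamini-Hochberg adjusted p under 0.05. Tcf7l2 itself stood at 4.48, 6.90 and 5.34 CPM in the APC-KI libraries, against 44.1, 43.8 and 35.6 CPM in the APC-WT libraries, lower in each APC-KI library, as labelled (log2 change −2.89 ± 0.19, edgeR adjusted p = 0.00124). The epithelial markers Krt8 and Krt19 were both abundant in every library. Transcripts of the Y-linked genes Ddx3y, Eif2s3y, Kdm5d and Uty were counted only in APC-WT replicates 1 and 2. Their sums were 19164 and 16055 counts there and 0 in the other 4 libraries. Xist, the RNA that coats the inactive X chromosome of females, was at 2194, 2085 and 2118 CPM in APC-KI libraries, against 0.330, 0.563 and 2221 CPM in APC-WT libraries. The labels do not give the sex of the mice. By these transcripts APC-WT replicates 1 and 2 read as male and the other 4 libraries as female. Sex was thus unbalanced between the groups, and for some genes values are also given without APC-WT replicates 1 and 2. APC-WT replicate 3 is then the lone control, and its spread is taken to equal that of the APC-KI group.

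Most members differed little between the groups, and a few passed the test. Of the 35 members 34 had enough counts to be tested, and Fabp1 did not. Among the 34, 7 rose and 1 fell in APC-KI tumours, which is 23.5% called, beside 20.1% of all genes tested. The share that rose was 20.6% of the members, beside 12.5% of all genes, and 7.63% of all genes fell. The members that rose were the carnitine carrier Slc25a20, the dehydrogenases Acadl and Hadh, the peroxisomal thiolase Acaa1b, the mitochondrial thiolase Acat1, and the receptors Pparg and Ppard. The one that fell was Pdk4, the kinase that shuts off pyruvate oxidation. The groups did not overlap for 16 of the 34 tested members, which is 47.1%, beside 44.5% of all genes, so neither share stood far from that of genes in general. The median log2 change of the members was 0.20, beside −0.016 for all genes tested, with 26 members above 0 and 8 below. With library totals in place of TMM factors these medians were 0.082 for the members and −0.13 for all genes, and each of the 8 called members kept its direction. Among the 4 libraries that had no Y-linked counts, 0 of the 7 members that rose passed and each remained above 0.

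**Figure D1:**
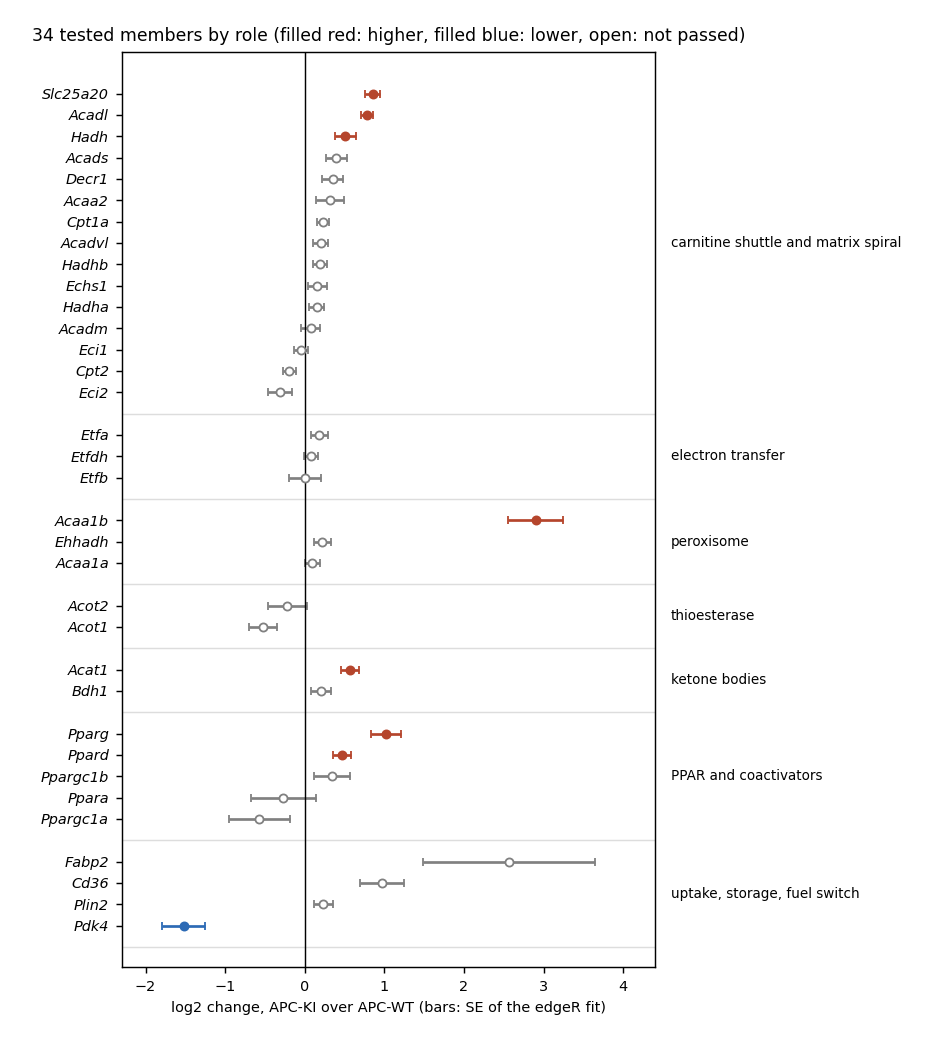
Log2 change of the 34 tested members in APC-KI over APC-WT tumours (x axis), with bars for the SE of the edgeR fit, ordered by role (y axis). The 7 filled red points to the right of 0 passed as higher, the filled blue point of Pdk4 at −1.52 passed as lower, and the open points did not pass.

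The promoters of the 7 called members that had an entry are shown because PPAR and TCF factors are both at issue in this design and their motifs can be looked for in the bases just before each gene start. The sequences are RefSeq's 250 bases before the start on GRCm38.p6, written in the direction of the gene, and 31 of the 35 members had one. Acaa2, Acat1, Decr1 and Ppargc1b did not. Capitals mark AGGTCA, the core element bound by PPAR and RXR.
Pparg, first start, chr6:115360894-115361143, plus strand: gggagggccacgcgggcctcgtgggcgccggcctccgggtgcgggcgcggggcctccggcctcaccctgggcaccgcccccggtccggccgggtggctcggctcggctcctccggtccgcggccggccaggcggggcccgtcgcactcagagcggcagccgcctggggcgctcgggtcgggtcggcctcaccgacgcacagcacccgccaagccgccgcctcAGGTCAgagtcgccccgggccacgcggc
Pparg, second start, chr6:115362099-115362348, plus strand: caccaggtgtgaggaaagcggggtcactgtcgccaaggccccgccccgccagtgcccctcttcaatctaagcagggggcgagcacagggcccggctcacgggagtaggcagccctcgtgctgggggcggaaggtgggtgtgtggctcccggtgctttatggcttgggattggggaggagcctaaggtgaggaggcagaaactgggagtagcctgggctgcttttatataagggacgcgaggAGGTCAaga
Pparg, last start, chr6:115421816-115422065, plus strand: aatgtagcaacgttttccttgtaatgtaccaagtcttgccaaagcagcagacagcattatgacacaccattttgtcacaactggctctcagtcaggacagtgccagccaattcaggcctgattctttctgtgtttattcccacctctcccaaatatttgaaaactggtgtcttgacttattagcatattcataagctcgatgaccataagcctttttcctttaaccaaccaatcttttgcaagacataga
Ppard, chr17:28232504-28232753, plus strand: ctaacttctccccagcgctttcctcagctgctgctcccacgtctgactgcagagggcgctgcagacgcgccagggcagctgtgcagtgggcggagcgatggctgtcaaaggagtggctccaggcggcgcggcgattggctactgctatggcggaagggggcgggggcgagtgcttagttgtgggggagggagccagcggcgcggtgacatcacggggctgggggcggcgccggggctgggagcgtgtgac
Hadh, chr3:131272102-131272351, minus strand: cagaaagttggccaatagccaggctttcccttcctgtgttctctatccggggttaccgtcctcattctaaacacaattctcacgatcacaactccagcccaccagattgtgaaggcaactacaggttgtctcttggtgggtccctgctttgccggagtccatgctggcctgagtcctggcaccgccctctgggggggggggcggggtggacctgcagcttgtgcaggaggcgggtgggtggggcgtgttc
Acadl, chr1:66863310-66863559, minus strand: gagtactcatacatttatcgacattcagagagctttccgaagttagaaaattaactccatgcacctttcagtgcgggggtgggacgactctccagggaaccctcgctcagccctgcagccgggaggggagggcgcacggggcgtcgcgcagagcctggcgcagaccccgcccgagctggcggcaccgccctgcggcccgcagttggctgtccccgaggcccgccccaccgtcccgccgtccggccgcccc
Slc25a20, chr9:108661886-108662135, plus strand: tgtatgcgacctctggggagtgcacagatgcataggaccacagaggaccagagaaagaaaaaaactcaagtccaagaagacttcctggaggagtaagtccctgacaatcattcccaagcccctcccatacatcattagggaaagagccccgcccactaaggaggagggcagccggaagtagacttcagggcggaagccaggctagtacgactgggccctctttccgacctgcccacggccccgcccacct
Acaa1b, chr9:119157094-119157343, minus strand: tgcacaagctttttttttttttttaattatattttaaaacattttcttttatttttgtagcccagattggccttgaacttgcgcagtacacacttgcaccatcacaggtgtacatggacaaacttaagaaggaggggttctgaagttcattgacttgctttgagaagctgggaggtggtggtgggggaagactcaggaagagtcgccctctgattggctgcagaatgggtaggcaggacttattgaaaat
Pdk4, chr6:5496279-5496528, minus strand: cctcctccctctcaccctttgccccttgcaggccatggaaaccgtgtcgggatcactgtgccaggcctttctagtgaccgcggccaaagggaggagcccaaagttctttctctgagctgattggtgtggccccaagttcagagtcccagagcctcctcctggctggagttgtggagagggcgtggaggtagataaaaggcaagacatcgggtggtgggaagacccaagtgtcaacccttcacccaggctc

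Pparg carried the AGGTCA core 28 bases before its first start and 9 bases before its second, on the strand of the gene, and not in the window of its last. The promoters of the other 6 called members held none of the motifs searched. Over both strands AGGTCA, or TGACCT on the other strand, was found for 8 of the 31 members (Cpt1a, Acadvl, Acadm, Echs1, Pparg, Cd36, Fabp1 and Plin2), beside 15.8% of the 27025 genes with a promoter. The full PPAR element, DR1, was searched as an exact pair of AGGTCA cores with 1 base between them. It was found for 0 of the 31 members and for 0.0407% of all genes. In this exact form it is so rare that its absence cannot set the members apart from other genes. Looser forms and bases further away were not searched. The TCF core CTTTGAT was found for Acot1 alone, beside 3.72% of all genes. Of the 8 members with an AGGTCA core, Pparg was the one that passed the expression test, and Fabp1 was not tested. Of all genes tested 20.1% passed, and a link between the core and the calls was not tested.

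In the carnitine shuttle and the mitochondrial spiral, 3 of 15 members rose and 0 fell, with a median log2 change of 0.20. Slc25a20, the carrier that moves acylcarnitines across the inner membrane, was at 106, 105 and 86.3 CPM in APC-KI tumours, against 57.4, 52.8 and 54.6 CPM in APC-WT tumours. Every APC-KI library was above every APC-WT library, and the APC-WT libraries lay close together. The gene was 1.80-fold higher (log2 change 0.85 ± 0.097, edgeR adjusted p = 0.00541). Acadl, the long-chain acyl-CoA dehydrogenase, was at 348, 327 and 305 CPM in APC-KI tumours, against 187, 197 and 186 CPM in APC-WT tumours. The APC-WT libraries again fell within a narrow band well below the APC-KI libraries, and the gene was 1.72-fold higher (log2 change 0.78 ± 0.075, adjusted p = 0.00395 in edgeR). Both of these genes passed whichever single library was left out, though every such fit still held an APC-WT library with Y-linked counts. With Y-linked counts as a covariate Acadl passed and Slc25a20 did not (edgeR adjusted p = 0.0353 and 0.0503). Without APC-WT replicates 1 and 2 the log2 changes of Slc25a20 and Acadl were 0.858 and 0.807. Hadh, the dehydrogenase for medium and short hydroxyacyl chains, was at 137, 113 and 114 CPM in APC-KI tumours, against 98.1, 82.6 and 74.6 CPM in APC-WT tumours. The groups did not overlap, but the gap between them was smaller than the spread within either (log2 change 0.51 ± 0.13, edgeR adjusted p = 0.0353). Hadh did not pass without APC-KI replicate 1, 2 or 3 (adjusted p = 0.108, 0.0737 and 0.0511) or without APC-WT replicate 2 or 3 (adjusted p = 0.116 and 0.0622), nor with library totals only (adjusted p = 0.0572).

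The other 12 spiral members did not pass, and their log2 changes lay between −0.31 and 0.39. Cpt1a, which makes the acylcarnitine and sets the pace of the pathway, was at 169, 171 and 162 CPM in APC-KI tumours, against 145, 133 and 150.2 CPM in APC-WT tumours. Its groups did not overlap, yet the change was small (log2 change 0.23, 95% interval 0.058 to 0.404, edgeR adjusted p = 0.0661), and it passed with DESeq2 (adjusted p = 0.0307). Cpt2, which takes carnitine off again in the matrix, had a log2 change of −0.19 (edgeR adjusted p = 0.132). Among the acyl-CoA dehydrogenases, the very long chain enzyme Acadvl had a log2 change of 0.20, the medium chain enzyme Acadm 0.07 and the short chain enzyme Acads 0.39, none of which passed in edgeR. Acads passed with DESeq2 (adjusted p = 0.0392) and, in edgeR, without APC-KI replicate 3 (adjusted p = 0.0180). Of the Acadvl exons in the GENCODE M21 annotation 42.9% lie opposite exons of Dvl2, so its level is uncertain if reads were counted without regard to strand. Hadha and Hadhb, the subunits of the trifunctional protein that runs the later steps for long chains, had log2 changes of 0.15 and 0.19. The interval for Hadha ran from −0.07 to 0.37. The hydratase Echs1, the isomerases Eci1 and Eci2, the dienoyl reductase Decr1 and the thiolase Acaa2 had log2 changes of 0.16, −0.05, −0.31, 0.35 and 0.31. In edgeR Decr1 passed without APC-WT replicate 3 (adjusted p = 0.0412) and Cpt2 with library totals only (adjusted p = 0.0466). Per length of exon, Acadl had the highest level of the 35 members, at 163 RPKM in APC-KI tumours and 94.8 RPKM in APC-WT tumours. The next in order, Etfa, was at 45.2 RPKM in APC-KI and 39.9 RPKM in APC-WT tumours.

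The electron transfer flavoproteins, which pass electrons from the acyl-CoA dehydrogenases to the respiratory chain, held 0 calls among 3. Etfa, one subunit, was at 92.4, 85.7 and 70.8 CPM in APC-KI tumours, against 75.3, 75.2 and 69.0 CPM in APC-WT tumours. APC-KI replicate 3 lay within the APC-WT values, so the groups overlapped (log2 change 0.18 ± 0.11, edgeR adjusted p = 0.263). The oxidoreductase Etfdh had a log2 change of 0.08. Etfb, the other subunit, was counted between 3.26 and 4.399 CPM in APC-KI tumours and between 3.55 and 4.32 CPM in APC-WT tumours. Of its exon bases 58.2% are shared with other gene models on the same strand, most of them with Gm45233, so its level is uncertain.

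Of the 3 peroxisomal members Acaa1b rose and 0 fell. Acaa1b, a 3-ketoacyl-CoA thiolase that in mice is best known from liver, had 184, 227 and 156 counts in APC-KI libraries, against 20, 28 and 34 counts in APC-WT libraries. In CPM these were 3.53, 4.34 and 2.78 in APC-KI tumours, against 0.300, 0.492 and 0.636 in APC-WT tumours. The gene was rare in both groups and the values stood far apart, at 7.47-fold higher (log2 change 2.90 ± 0.35, edgeR adjusted p = 0.00599). Its paralog Acaa1a was at 56.3, 64.1 and 54.5 CPM in APC-KI tumours, against 49.7, 55.7 and 58.6 CPM in APC-WT tumours, with groups that overlapped (log2 change 0.09, edgeR adjusted p = 0.512). The longest coding transcripts of the pair were 95.7% identical over 1471 aligned bases, and 35.5% of the 50-base windows of Acaa1b were also found in Acaa1a. The split of reads between them is therefore uncertain. Of the hepatocyte markers, Apoc3 and Fga were at or below 0.0300 CPM in every library, and Alb and Ttr were counted in every library. Alb was at 12.1, 19.4 and 8.79 CPM in APC-KI tumours, against 22.0, 15.0 and 79.99 CPM in APC-WT tumours, with groups that overlapped. Ttr was at 7.22, 6.02 and 12.5 CPM in APC-KI tumours, against 19.6, 11.1 and 4.002 CPM in APC-WT tumours, and its groups overlapped too. Tat rose, and the list of 8 summed to between 62.9 and 109 CPM in APC-KI tumours and between 56.9 and 120.2 CPM in APC-WT tumours. Ehhadh, the bifunctional enzyme of the peroxisomal cycle, had a log2 change of 0.22 with groups that did not overlap (edgeR adjusted p = 0.186).

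The 2 thioesterases, which release free fatty acid from acyl-CoA, did not pass. Acot1, the cytosolic form, was at 5.69, 7.34 and 6.16 CPM in APC-KI tumours, against 9.27, 7.91 and 10.4 CPM in APC-WT tumours. All APC-KI libraries were below all APC-WT libraries (log2 change −0.53 ± 0.18, edgeR adjusted p = 0.0785), and the gene passed with DESeq2 (adjusted p = 0.0207) and with library totals only (adjusted p = 0.0421). Acot2, the mitochondrial form, had a log2 change of −0.22 with groups that overlapped. Their transcripts were 94.3% identical over 1330 aligned bases, so reads may be shared here too.

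**Figure D2:**
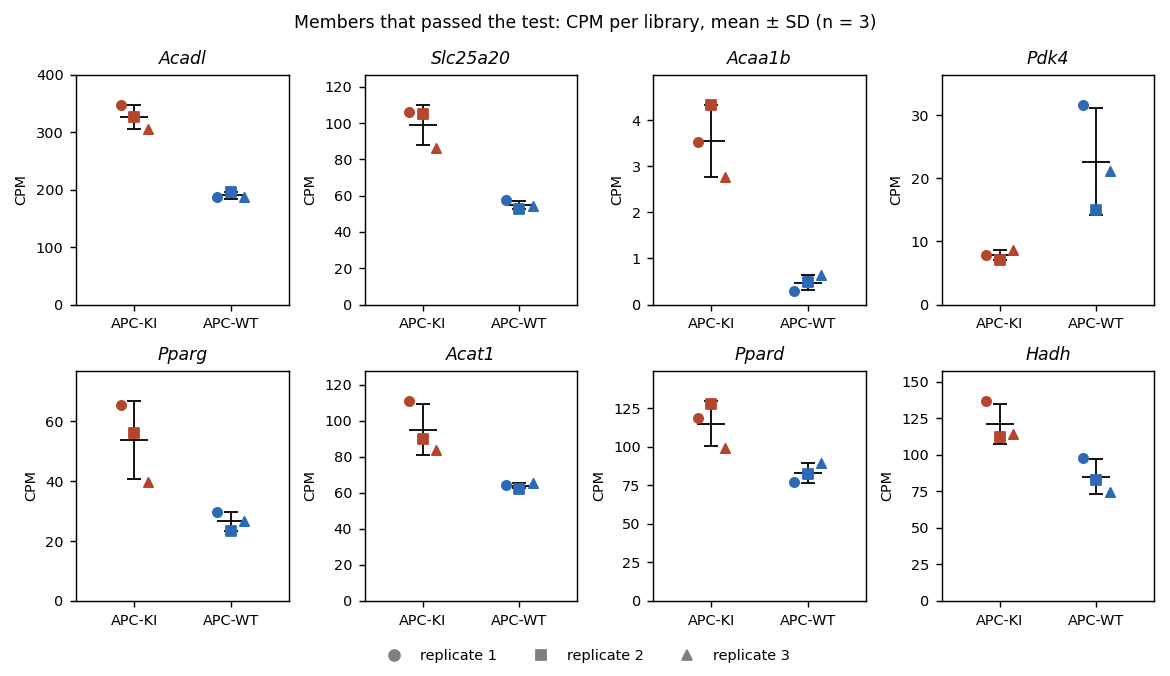
CPM of the 8 members that passed (y axis of each panel, from 0) in APC-KI and APC-WT tumours (x axis). Points are single libraries with a marker for the replicate, and the bars are the mean ± SD of 3 libraries. In each panel the groups do not overlap, and Pdk4 is the one panel with the APC-KI libraries lower.

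Of the ketone body enzymes Acat1 rose and Bdh1 did not pass. Acat1 encodes the mitochondrial acetoacetyl-CoA thiolase, which works in both the making and the use of ketone bodies and in isoleucine breakdown. It was at 111, 90.0 and 83.9 CPM in APC-KI tumours, against 64.1, 62.4 and 65.4 CPM in APC-WT tumours. The APC-WT libraries were nearly equal and the APC-KI libraries spread above them (1.48-fold, log2 change 0.57 ± 0.11, edgeR adjusted p = 0.0184). Without APC-WT replicate 2 it did not pass (adjusted p = 0.0746). Bdh1, which interconverts acetoacetate and beta-hydroxybutyrate, was at 82.4, 80.3 and 64.7 CPM in APC-KI tumours, against 71.2, 68.8 and 57.4 CPM in APC-WT tumours. Replicate 3 was the lowest in each group and the groups overlapped (log2 change 0.20, 95% interval −0.09 to 0.502). An antisense model opposite Bdh1 covers 13.7% of its exons.

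Among 9 other genes of ketone metabolism, 2 rose and 1 fell. Oxct1, the transferase that begins ketone body use, was at 222, 199.99 and 188 CPM in APC-KI tumours, against 129, 128 and 133 CPM in APC-WT tumours. Its groups were well apart (1.56-fold, log2 change 0.64 ± 0.081, edgeR adjusted p = 0.0065). The cytosolic thiolase Acat2 rose by 0.39 and Hmgcll1, a lyase outside the mitochondrion, fell by 1.19 on the log2 scale (edgeR adjusted p = 0.0379 and 0.0267).

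Of the PPAR receptors and coactivators 2 of 5 rose and 0 fell. Pparg, the receptor known from fat cells that is also strongly expressed in colon epithelium, was at 65.4, 56.1 and 39.9 CPM in APC-KI tumours, against 29.5, 23.4 and 26.8 CPM in APC-WT tumours. The APC-KI libraries ranged widely and all lay above the APC-WT libraries (2.02-fold, log2 change 1.02 ± 0.19, edgeR adjusted p = 0.0164). Ppard, the most broadly expressed of the receptors, was at 119, 128 and 99.0 CPM in APC-KI tumours, against 76.9, 82.6 and 89.7 CPM in APC-WT tumours. Its groups did not overlap, though APC-KI replicate 3 and APC-WT replicate 3 came close (1.39-fold, log2 change 0.47 ± 0.11, edgeR adjusted p = 0.0311). Pparg did not pass without APC-KI replicate 1 or 2 or APC-WT replicate 2 (adjusted p = 0.054, 0.0573 and 0.067). Ppard did not pass without APC-KI replicate 1 or 2 or APC-WT replicate 1 or 2 (adjusted p between 0.0785 and 0.103), nor with the replicate number as a block (adjusted p = 0.0874).

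Ppara, the receptor of liver and fasting, was rare, at 1.67, 0.880 and 1.67 CPM in APC-KI tumours, against 2.504, 1.57 and 1.03 CPM in APC-WT tumours. The groups overlapped (log2 change −0.27, 95% interval −1.24 to 0.697). Per length of exon, Pparg and Ppard were at 18.2 and 15.3 RPKM in APC-KI tumours and at 8.997 and 11.1 RPKM in APC-WT tumours, and Ppara was at 0.367 RPKM in APC-KI and 0.443 RPKM in APC-WT tumours. Ppargc1a, the coactivator that drives mitochondrial gene expression, was chosen for a closer description after its values were seen. It was at 26.4, 19.1 and 43.6 CPM in APC-KI tumours, against 57.1, 49.3 and 25.9 CPM in APC-WT tumours. Its 2 high APC-WT libraries were the 2 with Y-linked counts, and APC-WT replicate 3 lay inside the APC-KI range (log2 change −0.57 ± 0.39, edgeR adjusted p = 0.32). Among the 4 libraries that had no Y-linked counts the sign was the opposite (log2 change 0.197, edgeR adjusted p = 0.85). Ppargc1b, its relative, did not pass (log2 change 0.34).

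Among lipid uptake, storage and fuel switch genes, Pdk4 fell and 0 of the other 3 tested rose. Pdk4, a classical PPAR target that rises in fasting and holds back glucose oxidation, was at 7.82, 7.10 and 8.72 CPM in APC-KI tumours, against 31.7, 15.0 and 21.2 CPM in APC-WT tumours. The APC-KI libraries were tightly grouped and the APC-WT libraries spread over a wide range above them (2.87-fold lower, log2 change −1.52 ± 0.27, edgeR adjusted p = 0.0147). It did not pass without APC-KI replicate 1 or 2 (adjusted p = 0.062 and 0.0581). Among the 4 libraries that had no Y-linked counts, Pdk4 was the one of the 8 called members to pass (adjusted p = 0.0392), with a fit that called 1.62% of all genes. With Y-linked counts as a covariate over the 6 libraries it did not pass (adjusted p = 0.106).

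Cd36, the fatty acid receptor of endothelium, macrophages, fat cells and gut epithelium, and Fabp2 were singled out after their values were seen. Cd36 was at 12.2, 11.3 and 11.1 CPM in APC-KI tumours, against 4.24, 4.82 and 8.64 CPM in APC-WT tumours. The APC-KI libraries were almost equal and above all APC-WT libraries, and APC-WT replicate 3, without Y-linked counts, was the nearest to them (log2 change 0.97 ± 0.28, edgeR adjusted p = 0.0529). Cd36 passed with DESeq2, with limma-voom, without the filter on low counts and without APC-WT replicate 3 (adjusted p = 0.00465, 0.0314, 0.0367 and 0.00767). Fabp2, the intestinal fatty acid binding protein of absorptive cells, was at 24.9, 14.4 and 1.89 CPM in APC-KI tumours, against 1.03, 0.774 and 5.16 CPM in APC-WT tumours. APC-KI replicate 3 fell below APC-WT replicate 3, and the change did not pass (log2 change 2.57 ± 1.08, 95% interval −0.02 to 5.15). Fabp1, the binding protein of liver and proximal intestine, had 4 counts over the APC-KI libraries and 4 counts over the APC-WT libraries, near the floor of 3 counts. Plin2, which coats lipid droplets, had a log2 change of 0.23 with groups that overlapped.

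**Figure D3:**
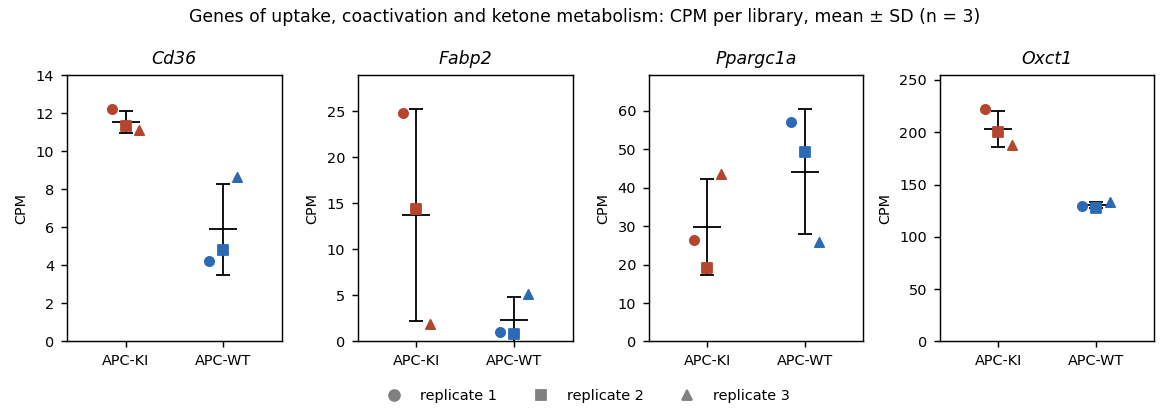
CPM of the members Cd36, Fabp2 and Ppargc1a and of the ketone gene Oxct1 (y axis of each panel, from 0) in APC-KI and APC-WT tumours (x axis). Points are single libraries with a marker for the replicate and bars are the mean ± SD of 3 libraries, and of these 4 genes Oxct1 passed the test.

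Across 80 other genes of these pathways, of which 76 were tested, 13 rose and 4 fell, which is 22.4% called, beside 20.1% of all genes. Their median log2 change was 0.11, beside −0.016 for all genes tested. In fatty acid activation and carnitine handling 2 of 13 rose and 1 fell. The transporter Slc27a4, the main fatty acid transport protein of the gut, was at 55.7, 57.1 and 54.4 CPM in APC-KI tumours, against 41.6, 40.7 and 40.4 CPM in APC-WT tumours (edgeR adjusted p = 0.00867). Its relative Slc27a1 went the other way, at 27.0, 33.3 and 38.4 CPM in APC-KI tumours, against 67.9, 59.3 and 62.0 CPM in APC-WT tumours (edgeR adjusted p = 0.00873). The groups were clearly apart for both transporters. The acyl-CoA synthetase Acsl5 rose by 0.42 on the log2 scale. Of 25 other oxidation and peroxisomal genes tested 4 rose and 0 fell. They included the dehydrogenase Acad11 (log2 change 0.75) and the thioesterases Acot9 (0.54) and Acot4 (1.16).

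Of 29 tested PPAR partners and PPAR-responsive genes 5 rose and 2 fell. Mgll, the lipase that splits monoacylglycerol, was at 25.2, 25.1 and 24.2 CPM in APC-KI tumours, against 6.97, 6.31 and 11.2 CPM in APC-WT tumours. It was 3.05-fold higher, with APC-KI libraries that were nearly equal (log2 change 1.61 ± 0.22, edgeR adjusted p = 0.00781). Ucp2, a carrier of the inner mitochondrial membrane, fell by 0.57 (edgeR adjusted p = 0.0139), and the coactivator Ncoa1 rose by 0.60 on the log2 scale (edgeR adjusted p = 0.0201). Pprc1, the third member of the coactivator family of Ppargc1a, fell by 0.32 (edgeR adjusted p = 0.0224). The PPAR-responsive genes Angptl4, an inhibitor of lipoprotein lipase, and Lpl, the lipase itself, were singled out after their values were seen and did not pass (edgeR adjusted p = 0.346 and 0.195). Lpl was at 24.1, 27.0 and 21.5 CPM in APC-KI tumours, against 5.29, 6.40 and 22.5 CPM in APC-WT tumours. Angptl4 was at 16.7, 21.1 and 13.9 CPM in APC-KI tumours, against 5.37, 6.21 and 19.9 CPM in APC-WT tumours. In both genes APC-WT replicates 1 and 2, which held the Y-linked counts, were low and APC-WT replicate 3 was within the APC-KI range.

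Summed over the 35 members, the level was 2528, 2389 and 2149.8 CPM in APC-KI tumours, against 1974, 1884 and 1865 CPM in APC-WT tumours. The sums did not overlap and their means stood in a ratio of 1.23. In bulk tumours, fewer cells of a type and less RNA per cell cannot be told apart. Markers of several cell types moved with the members, and their part in these results was not tested. The 8 general epithelial markers, of which 4 rose, summed to between 11059 and 13013 CPM in APC-KI tumours and between 8638 and 9566 CPM in APC-WT tumours, a ratio of 1.33. Krt8 and Krt19 had the highest mean over the 6 libraries, and both rose. The 18 absorptive markers, of which 15 were tested, 8 rose and Slc9a3 fell, summed to between 9443 and 12208 CPM in APC-KI tumours and between 3531 and 3836 CPM in APC-WT tumours. Lypd8 and Muc3 had the highest mean over the 6 libraries, and both rose. Apoa1, Apoa4 and Sis, which mark small intestine, were at or below 0.383 CPM in every library. Slc5a1, from the same list, had a mean of 94.5 CPM in APC-KI tumours and 78.1 CPM in APC-WT tumours. For Anpep these means were 23.5 and 34.3 CPM, and for Alpi 0.823 and 0.157 CPM. Whether the tumours expressed a small intestinal programme was not tested. The 13 other nuclear genes of the mitochondrion, such as Atp5a1 and Cs, held 0 higher and 1 lower (Tomm20). Their sums, between 3594 and 4072 CPM in APC-KI tumours and between 3406 and 3834 CPM in APC-WT tumours, overlapped.

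**Figure D4:**
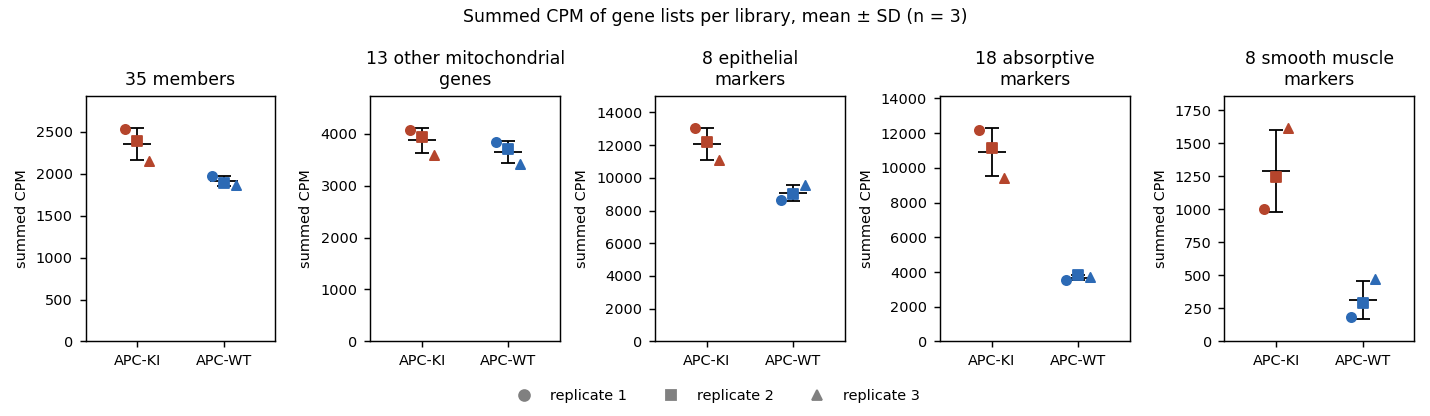
Summed CPM of the 35 members, 13 other mitochondrial genes, 8 epithelial, 18 absorptive and 8 smooth muscle markers (y axis of each panel, from 0) in APC-KI and APC-WT tumours (x axis). Points are single libraries and bars the mean ± SD of 3 libraries. The groups overlap for the mitochondrial genes and not for the other 4 lists.

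For Pparg and Cd36, which fat cells, macrophages and endothelium also express, the markers of these cells stood as follows. Of the adipocyte markers Lep was at 0 counts in every library, Adipoq was at or below 0.0768 CPM and Plin1 was counted in 1 library only. Cidec and Plin4 rose, and the list of 8 summed to between 20.3 and 25.2 CPM in APC-KI tumours and between 15.3 and 17.8 CPM in APC-WT tumours. Of 8 macrophage markers, with Lyz2 and C1qa highest by the mean over the 6 libraries, Cd14 rose and 0 fell, and their sums overlapped, at 887 to 1428 CPM in APC-KI tumours and 686 to 1150.3 CPM in APC-WT tumours. Of 8 endothelial markers, with Vwf and Pecam1 highest by the mean over the 6 libraries, 4 rose and 0 fell, with sums of 322 to 402 CPM in APC-KI tumours and 220.4 to 281 CPM in APC-WT tumours. All 8 smooth muscle markers rose, and Acta2 and Myh11 had the highest mean over the 6 libraries, with sums of 1000.1 to 1619 CPM in APC-KI tumours and 188 to 471 CPM in APC-WT tumours. Of the striated muscle markers, 4 of 8 were tested, Ckm rose, and the list summed to 5.14 to 7.57 CPM in APC-KI tumours and 2.40 to 3.89 CPM in APC-WT tumours.

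Within the APC-KI group, replicate 3 had the lowest level for 25 of the 34 tested members, or 73.5%, beside 35.5% of all genes tested. In the same library the summed absorptive and epithelial markers were the lowest of the group, and the summed smooth muscle markers the highest. Fabp2, Pparg and Slc25a20 were among the members that were lowest there, and Ppargc1a and Pdk4 were highest there. Within the APC-WT group, replicate 3 was the lowest for 16 of the 34 members, or 47.1%, beside 34.7% of all genes tested. It was the highest for 13 of the 34 members.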

How the data were processed

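RNA from 6 colon tumours, 3 APC-KI and 3 APC-WT, was sequenced with a TruSeq stranded mRNA kit after the tumours were pinched off the muscle, per the labels' protocols. The deposited table held raw counts per Ensembl gene, made by the authors from alignments sorted by coordinate, per the file headers. The submitters' processing notes name Trim Galore 0.6.4 with cutadapt 2.5, the aligner STAR, DESeq2 1.37.6 and the mouse builds GRCm38 and mm10. They do not name a counter, its handling of strand or a gene annotation. The headers named 1 run and lane throughout.

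Symbols came from GENCODE M21, which named 52093 of 53700 identifiers. Genes kept by filterByExpr were scaled by TMM and fitted in edgeR 4.0.16 in R 4.3.3 (estimateDisp, robust glmQLFit, glmQLFTest), with group as the sole term and p values adjusted by Benjamini-Hochberg over 19127 genes. SE was taken from the quasi-likelihood F statistic and 95% intervals from its degrees of freedom. RPKM used the union of M21 exons, a release other than the authors', so levels per length are approximate. Libraries of a group differed far beyond sampling noise, with chi-square per gene between 40.1 and 114. The p values set the difference between the groups against the spread between tumours within a group. The fit was also run on simulated counts with known changes. Those counts held no sex difference within a group, and the outcome is not given here.

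The members and lists were chosen with earlier results of these data known. Members that passed, and the member of smallest p of each role with no call, are given per library. Of the other pathway genes up to 4 per list that passed are named, by smallest p, and some genes are not reported here. Marker lists covered epithelium, absorptive cells, adipocytes, endothelium, macrophages, smooth and striated muscle and hepatocytes. Alternatives were DESeq2 1.42.0, limma-voom (limma 3.58.1), RLE and upper-quartile factors, library totals, no filter, CPM above 1 in at least 3 libraries, a block for the replicate number, leaving out mitochondrially encoded genes and the 10 most abundant, each library left out, the 4 libraries without Y-linked counts, and Y-linked counts as a covariate. Transcripts were aligned with Biopython 1.88.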

Additional observations from a re-analysis of the deposited data

How the results depend on the processing

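The 8 member calls all passed with RLE and upper-quartile factors, without the filter on low counts, with CPM above 1 in at least 3 libraries, without mitochondrial and the 10 most abundant genes, with DESeq2 and with limma-voom. In every setting run the 8 kept their sign. The members called higher numbered 0 among the 4 libraries that had no Y-linked counts and 1 (Acadl) with Y-linked counts as a covariate, beside 7. With DESeq2 they numbered 10, with Cd36, Cpt1a and Acads added, in a fit that called 30.1% of all genes. Those called lower numbered 3 with library totals only, 2 with DESeq2 and 0 with the covariate, beside 1. Of all genes 1.62% were called among the 4 libraries (178 higher, 152 lower) and 2.17% with the covariate (220 higher, 195 lower). Leaving out 1 library gave 3 to 8 higher and 0 to 1 lower members, and 788 to 2542 higher and 300 to 1595 lower genes in all. Slc25a20, Acadl and Acaa1b passed in each of these 6 fits. Without the Y-linked libraries their log2 changes were 0.858, 0.807 and 2.47 (adjusted p = 0.0705, 0.0584 and 0.0604), and those of Pparg and Acat1 were 1.00 and 0.534 (adjusted p = 0.169 and 0.197).

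Over all genes 2844 were lower with library totals only and 2388 with DESeq2, beside 1459. Of the other pathway genes 13 were higher and 4 lower. There were 8 higher and 8 lower with library totals only, 7 lower with DESeq2, 1 higher and 0 lower in the 4 libraries that had no Y-linked counts, and 1 higher and 1 lower with the covariate. Leaving out 1 library gave 3 to 16 higher and 1 to 6 lower.

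The log2 change of Tcf7l2 ran from −3.07 to −2.75 over the fits that left out 1 library, and it passed in every setting. With the replicate number as a block, 1195 genes were higher and 465 lower, 7 of the 8 member calls passed, and 5 other pathway genes were higher and 2 lower. Deviations of libraries with the same number had correlations of 0.035, −0.068 and −0.18. Those of libraries with different numbers ran from −0.14 to 0.20. These values gave no sign that the numbers pair the samples, but they cannot exclude it.

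Members that did not pass and changed sign were near 0 or spread. With library totals only Acadm was at −0.047, Etfdh at −0.039, Acaa1a at −0.023 and Etfb at −0.12. Etfb was also at −0.0024 with RLE and −0.039 with upper-quartile factors, −0.0042 with DESeq2, −0.013 with limma-voom and −0.0041 with the block, and from −0.102 to 0.098 when 1 library was left out. In the 4 libraries that had no Y-linked counts Acaa1a was at −0.010, Ppara at 0.45 and Ppargc1a at 0.197. With the covariate Acaa1a was at −0.0074, Acot2 at 0.0027, Ppara at 0.45 and Ppargc1a at 0.199. When 1 library was left out Acadm ran from −0.040 to 0.155 and Ppara from −0.53 to 0.116. The cause of these shifts was not tested.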
